A study of Mus musculus with 12 samples.

Results

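Bone marrow stromal cells recovered from the marrow of mice are compared here with the same kind of cells kept in culture. The comparison uses 6 of the 12 libraries of the series, which are the 3 titled HOMING and the 3 titled NC, and these were chosen by their titles alone. All cells are described as mouse bone marrow stem cells of C57BL/6 background, with the genotype entered as wide type, and carry green fluorescent protein (GFP). NC cells were GFP cells in primary culture. HOMING cells were GFP cells sorted out of the marrow of mice that had received them under the skin, with no tumour cells. The other groups share the GFP cells: BM cells came from the marrow of mice given GFP cells together with Lewis lung carcinoma cells carrying a red fluorescent protein, and TUMOR cells came from the inoculation site of such mice. All cells were sorted and flash frozen, and the sort gate, its purity, the days between injection and recovery, and the age and sex of the mice are not given in the sources used here. Whether the 3 libraries of each group stem from different mice or dishes is not stated, so p-values measure the spread between these samples only, which may be technical.

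Bone marrow stromal cells are adherent cells that form bone, fat and the supporting niche of blood stem cells, and that secrete matrix, growth factors and chemokines. Cells in culture attach to plastic, spread and contract, and take up nutrients from a medium that is changed at intervals. Several stress pathways respond to such conditions. The integrated stress response raises translation of ATF4, a transcription factor that switches on amino acid synthesis, amino acid transport, tRNA charging and the factor CHOP (gene Ddit3). NRF2 switches on glutathione and detoxifying enzymes, SREBP2 switches on cholesterol synthesis, and interferons switch on antiviral genes through IRF9 and related factors. Marrow itself holds mostly developing neutrophils, red cells and other blood cells, whose genes cultured stromal cells barely express.

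Levels are given in FPKM (fragments scaled to transcript length and to the depth of the library), in the order of replicates 1, 2 and 3. Differences are log2 changes, HOMING minus NC, with their standard error (SE), from edgeR's quasi-likelihood test on gene counts, with Benjamini-Hochberg adjusted p-values over 12314 genes. A gene was called when its adjusted p was under 0.05 and its change was at least 2-fold. The NC libraries held 45701667 to 46166519 expected counts and the HOMING libraries 43994944 to 44873051. NC libraries had 11044 to 11118 genes at 1 FPKM or more and HOMING libraries 11718 to 11825. HOMING replicate 3 stood apart from replicates 1 and 2 in genes of blood cells and of interferon and antigen presentation, and values without it are given where they change a count. In bulk samples, fewer cells of a type and less RNA per cell cannot be told apart.

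Of the 12314 genes tested, 1765 (14.3%) were called, 1187 higher in HOMING (9.64%) and 578 lower (4.69%). The answer depended on whether a gene was already expressed in culture. Among 11061 genes expressed in culture, meaning that NC averaged 1 FPKM or more, 419 rose (3.79%) and 562 fell (5.08%), which together are 8.87%, and the median change was -0.04. Among 1253 genes under 1 FPKM in NC, 768 were higher in HOMING (61.3%) and 16 lower (1.28%), which together are 62.6%. That second count is a description only, since most such genes could pass the expression filter only through a group in which they were high. In genes expressed in culture the rises and falls were of similar size, with a median log2 change of 1.35 for the 419 and -1.36 for the 562, and 90 rose and 130 fell at least 4-fold. The libraries of both groups did not overlap in FPKM for 72.6% of all tested genes, 71.6% of those expressed in culture and 81.9% of the others, so the absence of overlap reported for single genes below is common here. Genes of leukocytes were also among the largest rises expressed in culture, with mean NC levels of 1.08 to 3.81 FPKM. Camp, a neutrophil granule peptide, measured 1.37, 0.54 and 1.33 FPKM in NC and 58.4, 48.5 and 73.3 in HOMING, and Ptpn6, a phosphatase of blood cells, 1.73, 1.56 and 1.93 in NC and 29.1, 27.1 and 45.2 in HOMING. Hp, Lilr4b, Il1rn, Lilrb4a and Itgb2 belong to the same 12 largest rises, and with Camp and Ptpn6 they were 1.37 to 1.7 times higher in HOMING replicate 3 than in the mean of replicates 1 and 2. The falls sat at higher levels: the median level in NC was 12 FPKM for genes that fell and 3.8 FPKM for genes that rose. The NC level also enters the change itself.

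The balance shifted along the level in culture. From 1 to 5 FPKM in NC, 253 of 2892 genes rose (8.75%) and 190 fell (6.57%). From 5 to 20 FPKM, 126 of 4175 rose (3.02%) and 148 fell (3.54%). From 20 to 100 FPKM, 32 of 3182 rose (1.01%) and 152 fell (4.78%). At 100 FPKM and above, 8 of 812 rose (0.985%) and 72 fell (8.87%). The most abundant genes of cultured cells were called lower far more often than higher. The bins use the NC levels that also enter the change, so part of this tilt can follow from the binning. That part was not tested. The split of calls moves with scaling: with library totals in place of TMM factors, 559 genes expressed in culture rose and 450 fell, so that 55.4% of the calls were rises in place of 42.7%, and the median of all genes moved from 0.01 to 0.12. Limma on log2(FPKM + 1) gave 386 rises and 319 falls, or 54.8% rises. The balance also depends on which genes count as expressed: genes of at least 1 FPKM in the mean of the 6 libraries held 946 rises and 522 falls, since that split admits genes high in HOMING alone.

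**Figure D1:**
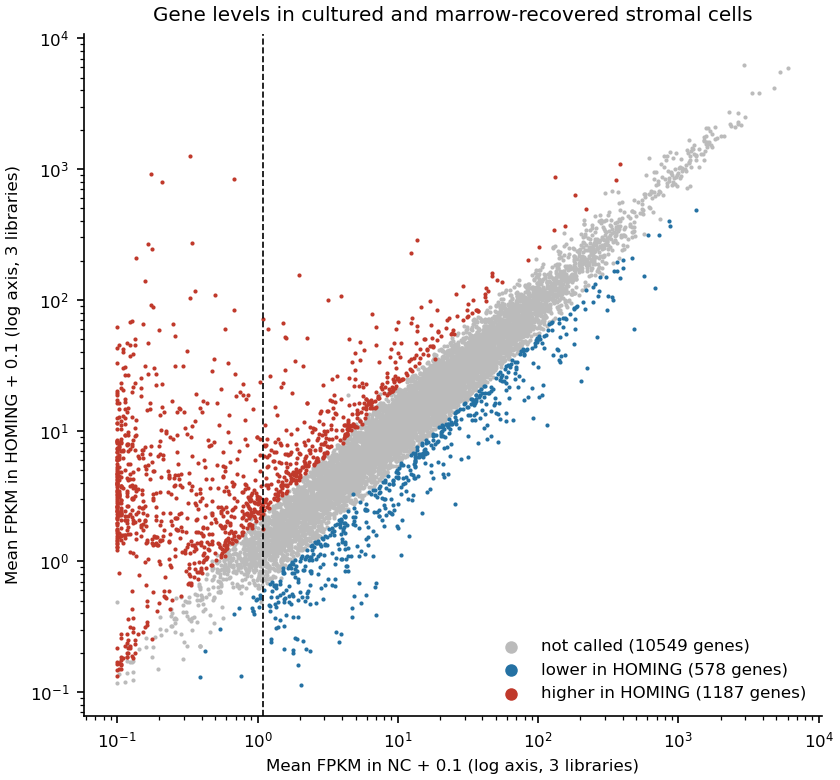
Mean FPKM of each tested gene in NC (horizontal, log axis) and in HOMING (vertical, log axis), each plus 0.1, with genes called higher in red, lower in blue and not called in grey, and a dashed line at 1 FPKM in NC. Left of the line 768 genes lie above the diagonal as called, and right of it 419 rose and 562 fell.

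Targets of ATF4 and CHOP gave more falls than any other of the 53 gene lists described. Of 46 members expressed in culture, 38 fell and 1 rose, with a median change of -1.44 beside -0.04 for all genes expressed in culture. Counts of members expressed in culture, here and in the lists below, stand beside 3.79% higher and 5.08% lower of all such genes. Against the same NC libraries these shares were 3.05% and 3.66% in BM and 5.95% and 6.92% in TUMOR. Their summed level was 7948, 7963 and 8018 FPKM in NC and 3347, 3296 and 3299 in HOMING, so the groups lay far apart and the libraries within each lay close together. Chac1, an enzyme that degrades glutathione, measured 192, 192 and 218 FPKM in NC and 25.3, 23.3 and 23.3 in HOMING, a change of -3.18 ± 0.09 (SE, n = 3 and 3, edgeR adjusted p = 2.53e-11). Nupr1, a stress-induced chromatin protein, measured 520.2, 507 and 422 FPKM in NC and 61.6, 62.8 and 53.2 in HOMING, a change of -3.12 ± 0.08 (edgeR adjusted p = 2.36e-11). Neither gene's groups overlapped, and each fell more than 8-fold.

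The promoters of 4 of the ATF4 and CHOP targets that fell are shown because they hold the letters of the element that ATF4 and its C/EBP partners bind, TGATGNAA, written in capitals and read on either strand. Each line is 60 bases, 5′ to 3′ along the gene's strand, from RefSeq on build GRCm38.p6. The stretches lie at chr2:119351024-119351083 (plus strand, Chac1), chr7:126625546-126625605 (minus strand, Nupr1), chr1:191183409-191183468 (minus strand, Atf3) and chr11:120643817-120643876 (minus strand, Pycr1).
Chac1: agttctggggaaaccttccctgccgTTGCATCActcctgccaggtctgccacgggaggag
Nupr1: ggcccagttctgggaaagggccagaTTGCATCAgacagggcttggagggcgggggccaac
Atf3: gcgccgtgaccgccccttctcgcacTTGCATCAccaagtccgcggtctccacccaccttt
Pycr1: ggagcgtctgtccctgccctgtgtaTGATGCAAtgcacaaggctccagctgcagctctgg
The letters were present in 14 of 47 promoters of the list (29.8%), in 8.32% of promoters of all genes expressed in culture that fell, in 2.40% of those that rose, and in 2.23% of promoters of all tested genes, each window running from 250 bases before to 50 bases after a gene's start. A match is a description and not a shown binding site. The list was chosen as targets of ATF4 and CHOP, so its share is no independent evidence. Its members that fell also count in the 8.32%. Slc7a11, the cystine transporter, holds the letters too and did not pass the test: it measured 13.9, 15.8 and 17.2 FPKM in NC and 17.1, 17.1 and 24.3 in HOMING, a change of 0.20 ± 0.13 (edgeR adjusted p = 0.165).

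The falls ran through each branch of the list. Among the transcription factors, Ddit3 (CHOP) measured 246, 262 and 284 FPKM in NC and 51.5, 55.7 and 49.5 in HOMING, a change of -2.45 ± 0.08 (edgeR adjusted p = 9.34e-11). Atf3, a stress-induced repressor, measured 57.7, 55.5 and 63.4 in NC and 13.2, 12 and 15.1 in HOMING, a change of -2.24 ± 0.08. Atf4 itself was lower by less than 2-fold and was not called, with 506, 486 and 476 FPKM in NC and 309, 311 and 305 in HOMING (-0.78 ± 0.04, edgeR adjusted p = 2.59e-09). ATF4 is controlled mainly at translation, which RNA levels do not measure. Among the enzymes of amino acid synthesis, Pycr1 (proline) changed by -2.40, Psph (serine) by -2.20, Asns (asparagine) by -1.42 and Phgdh (serine) by -1.29. Cth, which makes cysteine from cystathionine, measured 95.9, 90.6 and 88.6 FPKM in NC and 12.9, 12.2 and 12.3 in HOMING. The tRNA charging enzyme Wars fell from 185, 183 and 169 FPKM to 45.4, 45.0 and 46.2, and the amino acid transporter Slc7a5 from 296, 309 and 329.5 to 85.5, 84.8 and 81.0. Trib3, a pseudokinase that restrains ATF4 and CHOP, changed by -2.60. No NC library overlapped a HOMING library for any of these genes.

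The single member that rose was Gdf15, a secreted stress factor, with 3.76, 4.17 and 6.58 FPKM in NC and 9.10, 8.22 and 14.7 in HOMING, a change of 1.03 ± 0.23 (edgeR adjusted p = 0.00151). It was no longer called without HOMING replicate 3 (0.73), NC replicate 1 (0.87) or NC replicate 2 (0.93). The same list in the other recovered groups, each set against the same NC libraries, had 8 of 46 members lower and 1 higher in BM (3.66% and 3.05% of all genes expressed in culture), with a median of -0.30, and 37 lower and 0 higher in TUMOR (6.92% and 5.95%), with a median of -1.66. These comparisons share their controls with HOMING against NC. Set directly against BM, HOMING was lower in 24 of the 46 members and higher in 0, beside 2.71% lower and 2.18% higher of all genes expressed in culture. Chac1 averaged 231 FPKM in BM and 22.0 in TUMOR, and its change of HOMING minus BM was -3.30. Ddit3 averaged 186 FPKM in BM and 59.4 in TUMOR.

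**Figure D2:**
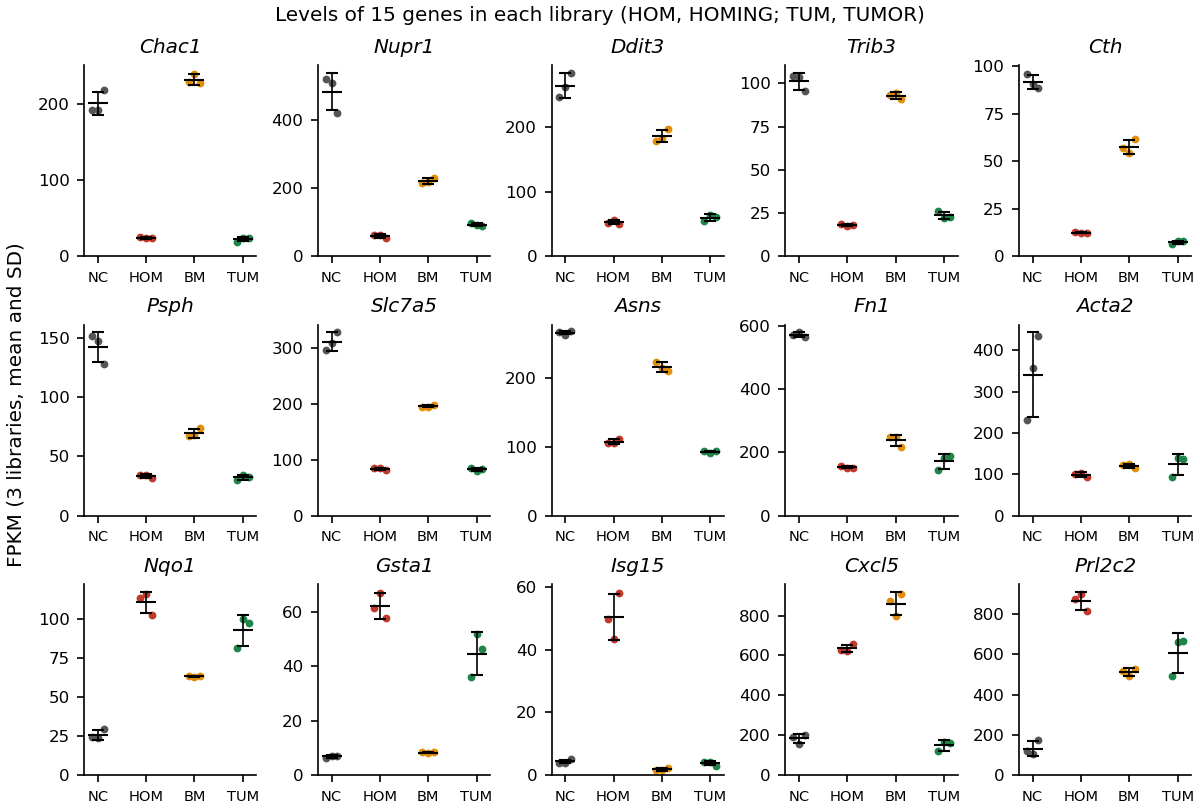
Levels of 15 genes (FPKM, linear axis from 0) in the 3 libraries of NC, HOMING, BM and TUMOR, with mean and SD. Chac1, Nupr1, Ddit3 and Trib3 lie low in HOMING and TUMOR and higher in NC and BM, while Isg15 is high in HOMING, with 43.2 to 58.0 FPKM against 3.96 to 5.07 in NC.

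Neighbouring stress lists held calls in both directions. The list of endoplasmic reticulum chaperones also holds related genes that are not chaperones, such as Herpud1 and Xbp1. Of its 20 members expressed in culture, 4 fell (Hspa5, Dnajb9, Herpud1 and Xbp1) and 1 rose (Sdf2l1), with a median of -0.40. Xbp1 lost its call at -0.78 when its most abundant transcript stood for the gene, and Dnajb9 at -0.93 with limma on log2(FPKM + 1). Hspa5, the main chaperone there, measured 674, 731 and 764 FPKM in NC and 310.1, 307 and 315 in HOMING, a change of -1.33 ± 0.05 (edgeR adjusted p = 3.42e-10). Of 24 p53 targets, 5 fell and 2 rose, with a median of -0.19. The members that fell include Gadd45a, a growth arrest gene, with 220.4, 220.2 and 234 FPKM in NC and 29.6, 31.2 and 29.4 in HOMING, a change of -3.01 ± 0.06 (edgeR adjusted p = 5.17e-12), and Sesn2, a nutrient stress sensor, with a change of -2.46. The member Cdkn1a, which encodes the cell cycle inhibitor p21, moved the other way, with 14.1, 13.4 and 25.8 FPKM in NC and 44.4, 42.4 and 43.6 in HOMING (1.17 ± 0.20). Both directions therefore occurred within the p53 list, and Sesn2 is also on the list of ATF4 and CHOP targets.

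Txnip, an inhibitor of thioredoxin that responds to glucose, measured 119, 108 and 99.7 FPKM in NC and 21.0, 20.7 and 25.4 in HOMING, a change of -2.39 ± 0.09 (edgeR adjusted p = 2.61e-10). It averaged 159 FPKM in BM and 55.2 in TUMOR. Of 20 immediate early genes, which respond within minutes to growth factors or handling, 3 rose (Fos, Ier3 and Zfp36) and 5 fell (Egr1, Atf3, Nr4a2, Klf4 and Myc), with a median of -0.16. The call of Ier3 was lost without NC replicate 2, at 1.0 after rounding. Klf4 measured 42.5, 40.1 and 47.6 FPKM in NC and 11.1, 10.9 and 10.8 in HOMING. Of 18 hypoxia genes 4 rose and 3 fell in HOMING (median 0.34), or 38.9% called beside 8.87% of all genes expressed in culture. In TUMOR 14 of them rose and 0 fell (median 1.28, same NC libraries), beside 5.95% and 6.92% of all. Of 21 glycolysis genes 2 rose (Pfkp and Slc16a3) and 0 fell in HOMING, a called share of 9.52% near the 8.87% of all genes expressed in culture, and 10 rose in TUMOR, where 5.95% of those genes did. The call of Pfkp (1.03) was lost without HOMING replicate 1 (0.99), NC replicate 2 (0.97) or NC replicate 3 (0.99).

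Matrix and contractile genes fell in part. Of 16 collagens expressed in culture 5 fell (Col3a1, Col4a2, Col4a5, Col5a2 and Col16a1) and 1 rose (Col5a3), with a median of -0.92. The summed collagen level was 885.6, 875.5 and 959.3 FPKM in NC and 555.9, 533.4 and 504.6 in HOMING. Of 28 matrix glycoproteins and crosslinking enzymes 9 fell and 2 rose, with a median of -0.69. Fn1, fibronectin, measured 572, 582 and 564 FPKM in NC and 156, 152 and 152 in HOMING, a change of -2.02 ± 0.08 (edgeR adjusted p = 5.05e-10). Fbln5, an organiser of elastic fibres, measured 11.9, 12.3 and 11.3 in NC and 1.49, 1.55 and 1.31 in HOMING, a change of -3.14 ± 0.09 (edgeR adjusted p = 2.53e-11). Thbs1, thrombospondin, went the other way, with 119, 121 and 150.5 FPKM in NC and 332, 319.5 and 369 in HOMING (1.27 ± 0.18). The list thus held large changes in both directions, with more falls.

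Contractile genes and targets of YAP, the transcriptional coactivator that follows cell spreading and tension, had 5 of 20 members lower (Acta2, Tagln, Myl9, Cnn1 and Amotl2) and 0 higher, with a median of -0.50. Acta2, smooth muscle actin, measured 231, 357 and 435 FPKM in NC and 102, 103 and 93.0 in HOMING, a change of -1.89 ± 0.20 (edgeR adjusted p = 2.47e-06). Tagln, an actin binding protein, measured 11.9, 18.7 and 27.3 in NC and 5.98, 5.82 and 5.01 in HOMING. The NC libraries were widely spread for both genes and the HOMING libraries were not, with no overlap. Of 19 proteases and inhibitors, 4 rose, among them Mmp3, Mmp10 and Mmp13, and 1 fell, Timp3, an inhibitor bound to matrix, from 128, 128 and 165 FPKM to 34.9, 36.2 and 32.7. Ptx3, a secreted pattern recognition protein, measured 775, 698 and 556 FPKM in NC and 126, 120.1 and 127 in HOMING, among the largest losses in level (-2.56 ± 0.12, edgeR adjusted p = 1.33e-09). Of 17 genes of neural adhesion and guidance 6 fell and 0 rose, among them Slit2, a guidance ligand, from 36.9, 41.6 and 45.0 FPKM to 18, 17.8 and 18.4.

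Genes that mark stromal cells kept a similar summed level, while 3 of those expressed in culture fell. The summed level of the stromal identity list was 4066, 4380 and 5229 FPKM in NC and 4432, 4478 and 4246 in HOMING, so the groups overlapped, and Vim, the intermediate filament vimentin, makes up much of it with 1449, 1392 and 1474 FPKM in HOMING. Of 17 members expressed in culture 0 rose and 3 fell, with a median of 0.01. That is 17.6% called, beside 8.87% of all genes expressed in culture. The 3 were Pdgfrb, a growth factor receptor of mesenchymal and mural cells (14.3, 14.7 and 15.8 FPKM in NC against 6.31, 6.27 and 6.04 in HOMING, -1.37 ± 0.07), Mcam, an adhesion molecule of mural cells (12.2, 14.2 and 11.1 against 2.95, 3.01 and 2.56, -2.25 ± 0.12), and Cspg4, a proteoglycan of pericytes (5.22, 6.94 and 9.51 against 2.11, 2.22 and 2.07, -1.87 ± 0.19). Pdgfra, the related receptor, was not called, with 12.1 FPKM in each HOMING library and 8.27, 6.93 and 10 in NC. The members that fell are all known in mural cells. Of the markers often used to define marrow stromal cells, Thy1, Nt5e, Lepr, Ngfr and Gli1 were too low to be tested, with means of 0.143, 0.367, 0.133, 0.0733 and 0.133 FPKM in NC and 0.503, 0.427, 0.213, 0.14 and 0.163 in HOMING, and Eng averaged 0.943 and 2.34.

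Among 10 niche factors for blood stem cells, Bmp4 and Csf1 fell and Tgfb1 rose, with a median of -0.50. Csf1, the growth factor of macrophages and osteoclasts, measured 234, 285 and 296 FPKM in NC and 118, 118 and 118 in HOMING (-1.29 ± 0.08, edgeR adjusted p = 2.21e-08). Tgfb1 measured 9.02, 9.05 and 10.3 in NC and 29.3, 27.4 and 43.9 in HOMING (1.71 ± 0.15, edgeR adjusted p = 3.6e-07). Leukocytes and platelets also express Tgfb1, and its part from such cells was not tested. Cxcl12, the chemokine that retains blood stem cells in marrow, was not called, with 31.5, 39.7 and 44.8 FPKM in NC and 30.5, 31.3 and 27.8 in HOMING. Kitl, the ligand of the receptor Kit, measured 7.60, 9.15 and 12.1 in NC and 5.88, 6.6 and 6.55 in HOMING and was not called. Of 8 osteoblast genes 1 rose (Phex, not called without HOMING replicate 1 at 0.95) and 0 fell, and of 10 adipocyte genes 1 rose (Apoe) and 1 fell (Plin4). Without HOMING replicate 3, 1 niche factor was lower, since Bmp4 lost its call at -0.99, and 2 adipocyte genes were.

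**Figure D3:**
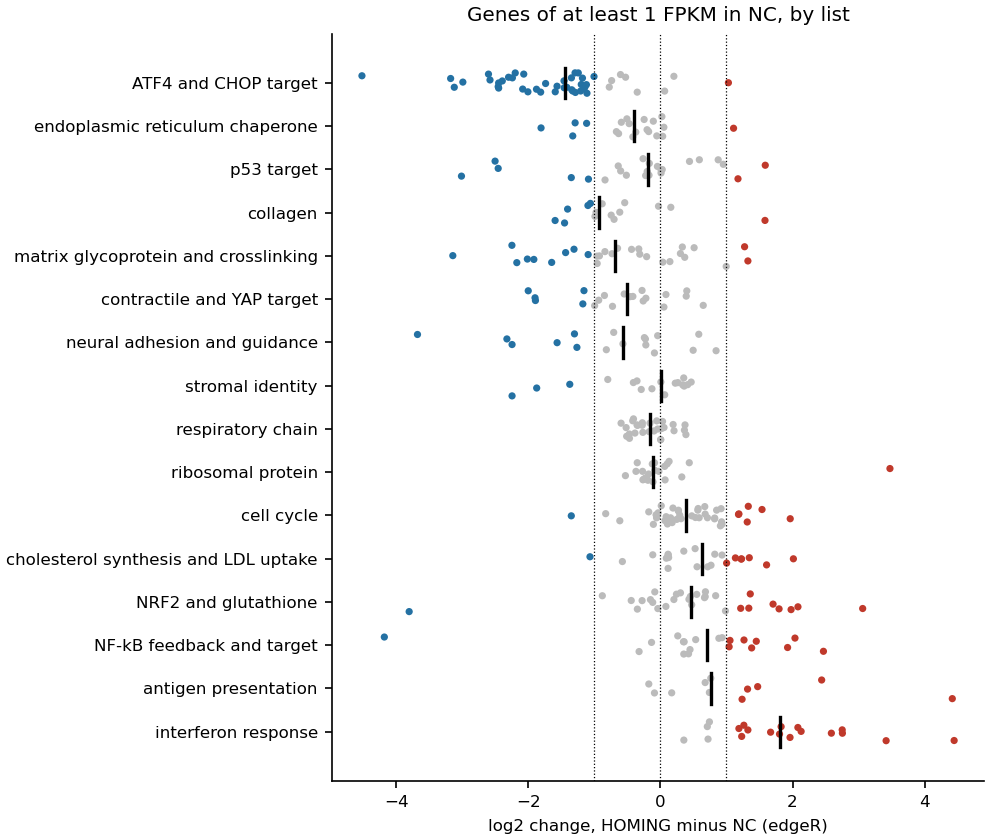
Log2 change, HOMING minus NC, of genes with at least 1 FPKM in NC in 16 lists, one point per gene (red called higher, blue called lower, grey not called) with a black bar at the list's median. The ATF4 and CHOP targets have a median of -1.44 and the interferon response genes a median of 1.80. The stromal identity, respiratory chain and ribosomal protein lists have medians near 0.

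Detoxifying enzymes and cholesterol genes rose in part. Of 30 NRF2 targets and glutathione genes 8 rose and 1 fell, with a median of 0.46. Nqo1, a quinone reductase, measured 24.2, 24.0 and 29.7 FPKM in NC and 113, 116 and 103 in HOMING, a change of 1.98 ± 0.10 (edgeR adjusted p = 2.07e-09). Gsr, glutathione reductase, measured 13.7, 12.8 and 14.5 in NC and 61.7, 59.7 and 66.3 in HOMING (2.08 ± 0.09). Gsta1, a glutathione transferase, measured 6.32, 7.21 and 7.11 in NC and 61.1, 67.0 and 57.8 in HOMING (3.06 ± 0.12, edgeR adjusted p = 3.65e-10). The groups did not overlap for any of the 3 genes. Gsta1 has close copies that can share reads, so its level is uncertain. Against the same NC libraries, BM had 2 of the 30 higher and 2 lower, and TUMOR 9 higher and 2 lower. Gsta1 averaged 8.28 FPKM in BM and 44.6 in TUMOR.

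Of 22 genes of cholesterol synthesis and uptake 7 rose and 1 fell (Msmo1, a sterol oxidase, whose call was lost without NC replicate 3 at -0.93 and with library totals at -0.95), with a median of 0.63. Their summed level was 199.5, 194.8 and 200.1 FPKM in NC, 290.5, 283.2 and 290.0 in HOMING and 450.5, 448.9 and 452.9 in BM. Srebf2, which encodes SREBP2, measured 15.3, 13.9 and 13.7 FPKM in NC and 37.0, 34.5 and 36.9 in HOMING (1.22 ± 0.05, edgeR adjusted p = 1.02e-09). Set directly against BM, HOMING was lower in 4 of the 22 and higher in 0. Without HOMING replicate 3, 6 of the 22 were higher than in NC.

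Of 42 cell cycle genes 35 were not called, a call needing a 2-fold change as well as the adjusted p. Another 6 were called higher (Mki67, Aurkb, Tk1, Cenpe, Cenpf and E2f8) and 1 lower (Ccnd2), with a median of 0.39. The list summed to 2504, 2501 and 2475 FPKM in NC and 3170, 3156 and 3116 in HOMING. Mki67, which marks dividing cells, measured 22.7, 23.6 and 23.3 FPKM in NC and 69.6, 72.3 and 76.2 in HOMING (1.54 ± 0.05, edgeR adjusted p = 1.39e-10). Aurkb, a mitotic kinase, measured 13.8, 13.2 and 14 in NC and 57.2, 57.3 and 58.5 in HOMING (1.97 ± 0.06). The HOMING libraries agreed closely here, with a median ratio of replicate 3 to the mean of replicates 1 and 2 of 0.99 over the list. Blood precursors in marrow also divide, and their part in these levels was not tested. Lists of basic machinery held few calls: 0 of 28 respiratory chain genes were called (median -0.16), 1 of 22 ribosomal protein genes was higher (Rpl3), 1 of 28 ribosome biogenesis genes was lower (Nop14, whose call was lost at -0.98 and -0.99 with limma and with library totals), and 0 of 21 HOX genes expressed in culture were called (median 0.07). Rpl3 measured 2.43, 2.19 and 1.40 FPKM in NC and 27.7, 26.2 and 40 in HOMING, and such genes have many processed copies that can take or give reads, so this value is uncertain.

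The largest gain in level among genes expressed in culture was Prl2c2, a secreted protein of the prolactin family known as proliferin, with 118, 103 and 174 FPKM in NC and 874, 903 and 818 in HOMING (2.60 ± 0.17, edgeR adjusted p = 3.13e-08). Its relative Prl2c3 measured 14.6, 10.9 and 15.6 in NC and 288, 298 and 279 in HOMING (4.29 ± 0.14, edgeR adjusted p = 8.08e-11). These genes are near-identical copies, so reads could be split between them, although both were higher in every HOMING library. Prl2c2 averaged 514 FPKM in BM and 608 in TUMOR, so the level was above that of NC in each recovered group.

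Of the 3 chemokines that attract neutrophils and were expressed in culture, Cxcl1, Cxcl2 and Cxcl5, each rose in HOMING. Their list also holds genes under 1 FPKM in NC and the cytokines Il1a, Il1b and Csf3, so its sum is not given. Cxcl5 measured 190.5, 158 and 204 FPKM in NC and 629, 620.0 and 657 in HOMING (1.68 ± 0.12, edgeR adjusted p = 6.6e-08). Cxcl2 measured 1.53, 1.65 and 2.43 in NC and 135, 131 and 194 in HOMING (6.24 ± 0.23, edgeR adjusted p = 2.44e-10). Cxcl1 measured 191, 180.5 and 292 in NC and 479.6, 483 and 513 in HOMING (1.04 ± 0.14), and its call was lost without NC replicate 1 (0.93) or NC replicate 2 (0.91). The 3 genes differed in how they followed replicate 3, where Cxcl2 was 1.46 times the mean of replicates 1 and 2, Cxcl5 1.05 times and Cxcl1 1.07 times. Cxcl1 averaged 1191 FPKM in BM and 117 in TUMOR, Cxcl5 859 and 149.7, and Cxcl2 69.5 and 6.73.

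Of 20 NF-kB targets expressed in culture 8 rose and 1 fell (Ccl20), with a median of 0.71, and 7 rose without HOMING replicate 3. Against the same NC libraries, 12 of them rose and 0 fell in BM (median 1.17), and 1 rose and 6 fell in TUMOR (median -0.53). Tnfaip3, a brake on NF-kB, measured 19.3, 17.3 and 20.6 FPKM in NC and 46.2, 45.7 and 56.7 in HOMING (1.26 ± 0.10). Nos2, the inducible nitric oxide synthase that stromal cells use to suppress T cells, measured 5.6, 3.76 and 4.55 in NC and 33.0, 29.7 and 37.2 in HOMING (2.73 ± 0.13, edgeR adjusted p = 1.77e-09) and averaged 64.3 in BM. Lcn2, an iron-binding protein of neutrophil granules that stromal cells also make, measured 442, 346 and 366 in NC and 956, 933 and 1421 in HOMING (1.42 ± 0.14). Slpi, a protease inhibitor, measured 13.6, 11.1 and 12.2 in NC and 201, 191 and 290.1 in HOMING (4.10 ± 0.16). Lcn2 and Slpi were both highest in HOMING replicate 3, at 1.5 and 1.48 times the mean of the other HOMING libraries, and the part of neutrophils in them was not tested.

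Most interferon response genes expressed in culture rose in HOMING. Of 19 expressed in culture 15 rose and 0 fell, with a median of 1.80. The 4 of these 19 not called were Irf1 (0.72), Ifi27 (0.35), Trim25 (0.71) and Ifitm3 (0.74). The other 21 members were under 1 FPKM in NC and were all called higher, beside 61.3% of all genes of that class, which adds no support since most could be tested only by being high. The summed level was 477.3, 438.1 and 494.3 FPKM in NC and 1171, 1117 and 1364 in HOMING. Isg15, a ubiquitin-like antiviral protein, measured 4.03, 3.96 and 5.07 FPKM in NC and 49.7, 43.2 and 58.0 in HOMING (3.42 ± 0.16, edgeR adjusted p = 1.9e-09). Rsad2, the antiviral enzyme viperin, measured 1.51, 1.19 and 1.73 in NC and 25.2, 23.6 and 38.9 in HOMING (4.45 ± 0.21, edgeR adjusted p = 1.63e-09). Every HOMING library lay above every NC library for both.

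The promoters of 4 interferon genes that rose are shown because they hold the letters of the core of the interferon-stimulated response element, which IRF9 and other IRF factors bind, in capitals and read on either strand. They lie on GRCm38.p6 at chr4:156200850-156200909 (minus strand, Isg15), chr12:26456538-26456597 (minus strand, Rsad2), chr19:34640760-34640819 (plus strand, Ifit1) and chr8:71537562-71537621 (minus strand, Bst2), and come from RefSeq.
Isg15: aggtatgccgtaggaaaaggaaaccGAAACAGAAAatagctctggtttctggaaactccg
Rsad2: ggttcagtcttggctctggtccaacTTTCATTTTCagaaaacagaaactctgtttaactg
Ifit1: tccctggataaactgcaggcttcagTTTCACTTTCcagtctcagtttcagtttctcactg
Bst2: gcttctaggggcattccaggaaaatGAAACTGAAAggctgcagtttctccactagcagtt
The letters were present in 9 of 20 promoters of the interferon genes expressed in culture (45.0%), in 8.17% of promoters of all genes expressed in culture that rose, in 2.96% of those that fell and in 3.12% of promoters of all tested genes. This list was chosen as interferon response genes, so its share is no independent evidence. Its members that rose also count in the 8.17%.

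The tethering antiviral protein Bst2 measured 6.01, 5.65 and 5.30 FPKM in NC and 40.9, 35.3 and 47.1 in HOMING (2.75 ± 0.16). Ifit1 measured 4.03, 5.22 and 7.12 in NC and 21.6, 20.1 and 27.4 in HOMING (1.96 ± 0.19). In the other groups, against the same NC libraries, 3 of the 19 rose and 4 fell in BM (median 0.25), and 1 rose and 3 fell in TUMOR (median 0.17). Set directly against BM, HOMING was higher in 12 of the 19 and lower in 0, and Isg15 averaged 1.84 FPKM in BM. HOMING replicate 3 was above the others here too, by a median of 1.31 times over the 19, and without it 15 of the 19 rose. The same median ratio was 1.63 for the pan leukocyte list. The part of leukocytes in the interferon values was not tested, and a difference of a single library cannot show it.

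Antigen presentation rose in part, with 5 of 11 members expressed in culture higher (H2-D1, Tap2, Tapbp, Psmb10 and Cd74), 0 lower and a median of 0.76. HOMING replicate 3 was above the mean of replicates 1 and 2 by a median of 1.2 times over these 11 and 1.46 times over all tested members, with 1.57 for Cd74 and 1.4 for H2-D1, and the part of leukocytes was not tested. Tapbp, which loads peptides on class I molecules, measured 19.9, 18.9 and 18.7 FPKM in NC and 57.5, 52.1 and 61.4 in HOMING (1.47 ± 0.06, edgeR adjusted p = 4.17e-10). H2-K1, a class I heavy chain, was not called, with 83.6, 71.0 and 65.3 in NC and 70.3, 69.7 and 81.8 in HOMING, whereas H2-D1 changed by 1.24. The class I genes resemble each other, so their reads could be shared and both values are uncertain. Cd274, which encodes the T cell inhibitor PD-L1, measured 0.55, 0.48 and 0.32 in NC and 17.9, 17.8 and 26.2 in HOMING, and averaged 0.993 FPKM in BM. It was under 1 FPKM in culture, and leukocytes express it as well.

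Many genes of blood cells were under 1 FPKM in NC and present in HOMING. All genes under 1 FPKM in NC together took 1.56%, 1.53% and 2.21% of the counts in HOMING and 0.381%, 0.363% and 0.362% in NC, with means of 1.77% ± 0.387 (SD, n = 3) and 0.369% ± 0.0103 (SD, n = 3). These genes were set apart by their low level in NC, so the direction of this difference follows from the split. An exact two-sided permutation test gave p = 0.1, the smallest it can reach, and for the same reason it adds no support. BM libraries averaged 0.564% and TUMOR libraries 0.853%. All counts of blood genes below describe libraries in which the genes had to be high to be tested.

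Neutrophil genes were present from early to late stages of development. The list of primary granule and precursor genes summed to 0.17, 0.06 and 0.09 FPKM in NC and 41.6, 35.5 and 56.5 in HOMING. Of its members, Elane (neutrophil elastase) had 0 counts in NC and 10.4, 9.09 and 14.3 FPKM in HOMING, at least 437-fold higher when the NC libraries are set together at a floor of 3 counts. Ctsg (cathepsin G), likewise at 0 counts in NC, measured 7.75, 7.38 and 10 FPKM in HOMING, at least 362-fold higher by the same floor. The mature neutrophil list summed to 35.6, 34.2 and 37.5 FPKM in NC and 1906, 1852 and 2724 in HOMING. S100a9, a calcium-binding protein abundant in neutrophils, measured 750.2, 671 and 980.2 FPKM in HOMING and 0.28 or less in NC. Ngp, a granule protein, measured 234, 219 and 348 in HOMING and 0.14 or less in NC.

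Other blood lineages were present too. The pan leukocyte list summed to 35.1, 34.3 and 29.4 FPKM in NC and 843.1, 820.4 and 1293 in HOMING. It includes Ptprc, the surface marker CD45, with 5.94, 5.94 and 10.6 FPKM in HOMING and 0.01 or less in NC. The monocyte and macrophage list summed to 43.5, 38.9 and 43.4 in NC and 325.5, 312.5 and 483.8 in HOMING, where Csf1r, the receptor for Csf1, measured 8.22, 7.55 and 13.8. The erythroid list summed to 95.8, 98.4 and 103.5 in NC and 2291, 2219 and 3588 in HOMING. Alas2, which starts haem synthesis in red cell precursors, measured 11.9, 11.1 and 18.5 in HOMING and 0.14 or less in NC. The megakaryocyte and platelet list summed to 4.35, 3.67 and 3.61 in NC and 48.4, 40.7 and 58.2 in HOMING. Lymphoid and endothelial markers were low in both groups: the T and NK cell list summed to at most 2.85 FPKM in a HOMING library, the B cell list to at most 9.20 and the endothelial list to at most 12.7.

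**Figure D4:**
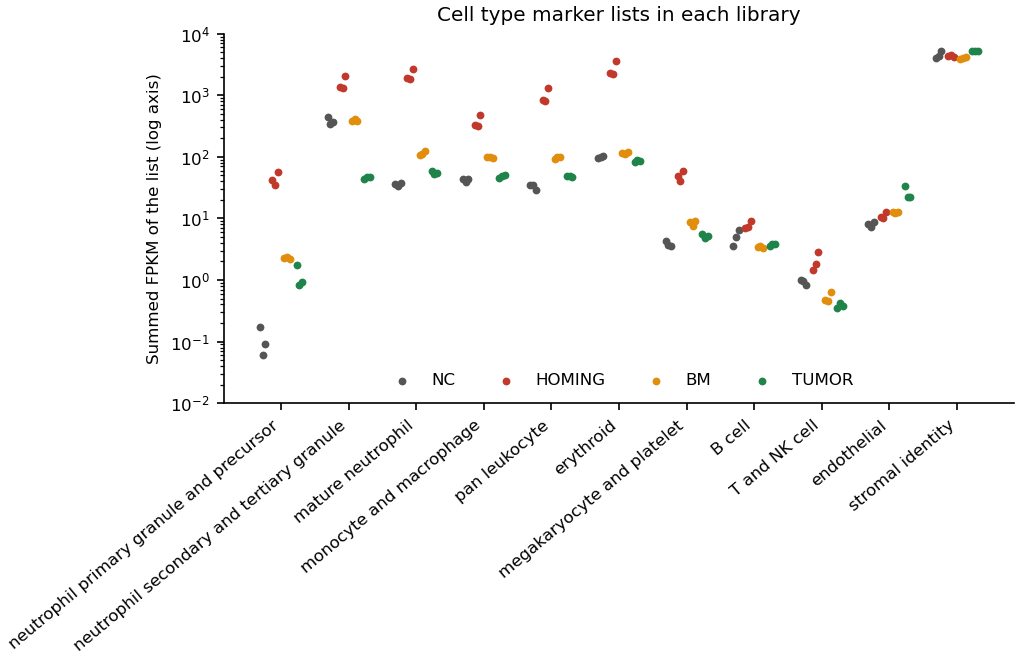
Summed FPKM of 11 cell type marker lists in each of the 12 libraries (log axis), coloured by group. Neutrophil, leukocyte and erythroid lists lie highest in HOMING, as with 2219 to 3588 FPKM for the erythroid list against 95.8 to 103.5 in NC, while the stromal identity list lies at 4066 to 5229 FPKM in NC and 4246 to 4478 in HOMING.

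BM libraries, also sorted from marrow, carried less of these genes. The pan leukocyte list summed to 91.4 to 100 FPKM in BM, the mature neutrophil list to 108.8 to 123.8, and the erythroid list to 113.0 to 118.4. HOMING minus BM was 10.31 on the log2 scale for Hba-a1, an alpha globin gene whose 1058, 994 and 1698 FPKM in HOMING stand beside a mean of 0.977 in BM. Hba-a1 has a near-identical copy, Hba-a2, and reads could be shared between them. In promoters of the 768 genes under 1 FPKM in NC that were higher in HOMING, the letters GAGGAAGT, bound by the myeloid factor PU.1, were present in 9.82% beside 3.25% of all tested promoters, and AGATAA, bound by GATA factors of red cells and megakaryocytes, in 11.7% beside 6.21%. Other letters were more frequent there too, namely the interferon element (8.06% beside 3.12%), AP-1 (7.62% beside 3.93%) and C/EBP (12.8% beside 8.24%), while the NF-kB site was not (26.1% beside 26.5%). In promoters of genes expressed in culture that rose, the NRF2 letters were present in 13.5% beside 14.3% of all. In the NRF2 list expressed in culture they were in 8 of 29 promoters (27.6%). They were as frequent in the ATF4 and CHOP list expressed in culture, in 14 of 47 promoters (29.8%), so they did not set the NRF2 list apart. The NF-kB site was in 13 of 18 promoters of the NF-kB list expressed in culture (72.2%) beside 26.5% of all. The NRF2 and NF-kB lists were chosen as targets of those factors, so their shares are no independent evidence. AP-1 letters were in 7.93% of promoters of genes expressed in culture that rose and 7.02% of those that fell, beside 3.93%. The sterol element was in 0 of 19 promoters of the cholesterol list. It was in only 0.165% of all tested promoters, so this 0 says little.

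Replicate 3 differed from the other HOMING libraries in blood genes and in several other lists. HOMING replicate 3 was above the mean of replicates 1 and 2 by a median of 1.47 times in genes of neutrophil primary granules, 1.63 times in pan leukocyte genes, 1.58 times in erythroid genes and 1.28 times in megakaryocyte and platelet genes, and by 1.47 times over all 768 genes under 1 FPKM in NC that were higher. Lists of other kinds had ratios above 1 as well, with 1.47 for CXC chemokines and their companion cytokines, 1.46 for Schlafen genes, 1.46 for antigen presentation, 1.39 for complement, 1.38 for interferon response and 1.22 for NF-kB targets. In genes expressed in culture that rose the median ratio was 1.1. It was 1.04 for NRF2 targets, 1.02 for cholesterol genes, 1.00 for ATF4 and CHOP targets, 0.98 for stromal identity and 0.93 for collagens. Without HOMING replicate 3, 410 genes expressed in culture rose and 556 fell, close to the 419 and 562 with it. Of the ATF4 and CHOP targets 38 fell without that library, as with it, and 5 collagens did.

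**Figure D5:**
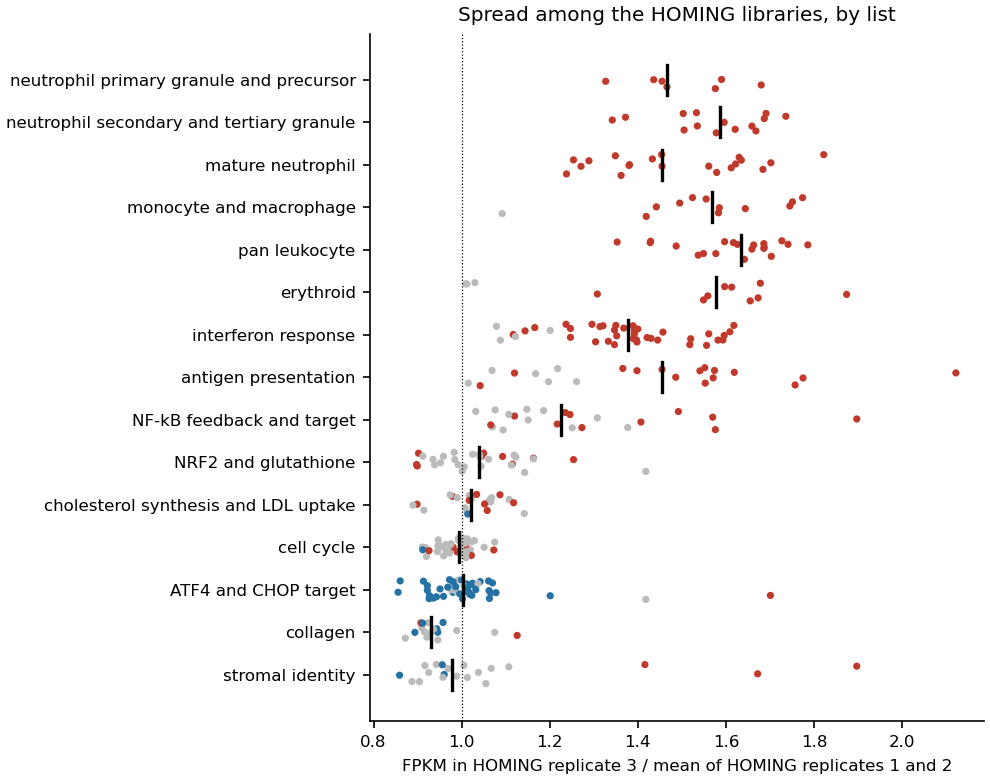
Ratio of FPKM in HOMING replicate 3 to the mean of HOMING replicates 1 and 2, for genes of at least 1 FPKM in HOMING in 15 lists (red called higher than NC, blue called lower, grey not called), with a black bar at the median. Blood cell lists lie between medians of 1.45 and 1.63, and ATF4, collagen and stromal identity lists lie near 1.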

How the data were processed

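RNA sequencing of 12 libraries was used, 3 per group, grouped by sample title. Per the labels' protocols, libraries were made with the TruSeq kit from sorted cells. Reads were mapped with Bowtie 0.12.2 and build mm8 is named, per the submitters' processing notes. The counting program and its use of strand are not given in the sources used here, so antisense and overlapping genes cannot be told apart. The authors deposited, for each library, expected counts (estimated reads per transcript, not normalized) and FPKM, which in the deposited tables are rounded to 2 decimals. Both were summed per gene, with transcripts not listed set to 0, which gave 21001 genes. A symbol was found for 19629 of the 19679 Entrez numbers. The 1322 genes without an Entrez number stayed in the fit.

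Gene sums of expected counts were rounded to whole numbers. The 12314 genes that reached 1 FPKM in 3 or more of the 12 libraries were scaled by TMM (factors 0.929 to 0.961 in NC, 1.021 to 1.025 in HOMING) and fitted in edgeR 4.0.16 (R 4.3.3) over all 4 groups, with 8 residual degrees of freedom. P-values of the two-sided quasi-likelihood test were adjusted by Benjamini-Hochberg. A simulation with 12314 genes used the 6 HOMING and NC libraries alone, not the fit over 4 groups. It recovered 100% of 100 genes changed 3-fold and 100% of 100 changed 6-fold, with 0 false calls. Changed genes were drawn from those above a minimum count, and changes near the 2-fold threshold were not simulated. The result therefore does not cover genes with few counts or small changes. Fold bounds use a floor of 3 counts over a group. At library totals of 43232145 counts or more, counting error matters mainly for genes with few counts.

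The comparison, 53 lists (1074 distinct genes) and the other choices were made with earlier results of these data known, so counts in a list are no independent evidence. Named genes were taken by rule among called genes without overlap between the groups and at 5 FPKM or more in the higher group: among genes expressed in culture the 12 largest rises, the 12 largest falls, the 8 largest gains and the 8 largest losses in level, among genes under 1 FPKM in NC the 10 highest levels in HOMING, and up to 4 called members of a list with the lowest adjusted p, or 2 members by level where none was called. List members were taken without the level and overlap conditions. Predicted genes, receptors of smell and segments of immune receptors were passed over. Asns, Atf4, Ccl20, Cxcl12, Ddit3, Gdf15, H2-D1, H2-K1, Ifi27, Ifit1, Ifitm3, Irf1, Isg15, Kitl, Msmo1, Nqo1, Pdgfra, Phgdh, Psph, Ptprc, Pycr1, Slc7a11, Slc7a5, Slit2, Thbs1, Tnfaip3, Trib3, Trim25 and Vim, and other members named only in a count, were chosen after their values were seen, as were the promoters printed. Some genes are not reported here.

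Promoters were those of RefSeq, build GRCm38.p6, from 250 bases before to 50 after a start, and 12142 promoters of 9512 tested genes matched. Motifs searched on both strands were TGATGNAA for ATF4 with C/EBP, TGACNNNGC for NRF2, TGACGTCA for CREB, TGAGTCA for AP-1, GAGGAAGT for PU.1, AGATAA for GATA factors, TTGCNNAA for C/EBP, the core of the interferon-stimulated response element, the NF-kB site and the sterol regulatory element. The NRF2 letters can hold those of AP-1. Alternatives were DESeq2 1.42.0, limma 3.58.1, other scalings, filters, splits and thresholds, and leaving out each library. Python 3.11.15, pandas 2.3.3, scipy 1.17.1 and matplotlib 3.10.9 were used.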

Additional observations from a re-analysis of the deposited data

How the results depend on the processing

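DESeq2 called 1766 genes in all beside 1765. Among genes expressed in culture, limma on log2(FPKM + 1) called 319 lower. Without a filter 3302 genes were called and 1850 of those under 1 FPKM in NC were higher, and with a filter of 5 FPKM these counts were 958 and 232, with 342 genes expressed in culture lower. Without a minimum fold change 8617 genes were called, with 3421 higher and 4220 lower among genes expressed in culture, and with a minimum of 4-fold 806, 90 and 130. Splitting at 5 FPKM in NC left 166 higher and 372 lower above the split. Splitting at 1 FPKM in the mean of the 6 libraries put 946 higher and 522 lower genes above and 241 higher genes below, so that rises outnumbered falls above the split. The share of HOMING counts from genes low in culture, 1.77%, became 1.37% with a split at 0.5 FPKM, 5.62% at 5 FPKM and 2.26% in FPKM shares.

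Leaving out each library in turn gave 1737 to 1833 calls in all, 410 to 474 higher and 556 to 575 lower among genes expressed in culture, and 756 to 774 higher among the others. Of 3991 values of 224 named genes across alternatives, 3936 kept their call and direction, 50 lost the call and 0 gained it. The 5 changes of sign were Hoxd8, at 0.00 for its most abundant transcript, and H2-K1, never called, at 0.02 with limma at either pseudocount or with library totals and at -0.17 to 0.00 when each library was left out in turn.

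Equal replicate numbers did not pair the libraries: deviations from the group means correlated at 0.002, 0.26 and 0.10 for numbers 1, 2 and 3, and not every library correlated best with its own number. With a replicate block 1770 genes were called over 12 libraries and 1766 over 6. Agreement between HOMING replicates 1 and 2 was close, with a chi-square per gene of 3.87 where counting noise gives 1, so each was kept as its own library. The chi-square was 2.96 to 46.2 for other pairs within a group. Genes under 1 FPKM in NC rest on few counts in culture.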
